A study of Mus musculus with 6 samples.

Results

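The EGF receptor, its relatives and the growth factors that bind them were followed in mouse kidneys injured by cisplatin. The set holds 10 genes of the 54532 in the deposited tables, chosen by gene name: the ligand genes Egf, Hbegf, Areg, Ereg, Tgfa, Btc and Nrg1, and the receptor genes Egfr, Erbb2 and Erbb3. RNA came from kidney tissue of 3 WT mice (replicates 1, 2 and 3) and 3 Trpm2-/- mice (replicates 1, 2 and 4), all C57BL/6J and, per the labels, 6 to 8 weeks old, whereas the methods give an older range. The mice were male per the methods, and each, of either genotype, had received a single dose of 18 mg/kg cisplatin 72 h before, so no untreated kidney stands beside them. The Trpm2-/- allele lacks a pair of exons for membrane-spanning segments in every cell of the body, and TRPM2 is a calcium-permeable channel opened by oxidative stress. Values are read counts per gene and, from them, CPM, counts scaled to a common library size after TMM normalization, which takes the bulk of genes to be at equal levels.

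Ligands of this family are made as membrane-anchored precursors that metalloproteases cut free. They bind EGFR or its relatives, the receptors pair up, and the signal runs through RAS and ERK to the nucleus and through PI3K to AKT. ERBB2 binds no known ligand and serves as a partner, while ERBB3 binds neuregulins and has little kinase activity of its own. In the healthy kidney EGF is made mainly by cells of the thick ascending limb and the distal convoluted tubule, and receptor activity in injured proximal tubule is known to aid the regrowth of the epithelium. HB-EGF, amphiregulin and TGF-alpha are known to be induced in injured tubules.

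The 6 libraries held 14053307 to 17150089 counts on genes, where a count of 3, taken as the floor for counting error only, equals 0.184 to 0.205 CPM. Trpm2 itself had 5, 5 and 27 counts in WT and 10, 16 and 20 in Trpm2-/- kidneys, and since the count covers exons that the allele keeps, it does not check the genotype labels. All 10 proximal tubule markers were detected, and 10 of 10 fell in Trpm2-/- kidneys, against 7.28% of all genes tested (summed level 4600 to 5986 CPM in WT and 1981 to 2499 CPM in Trpm2-/-). Markers of tubule injury summed to 17680 to 19770 CPM in WT and 19950 to 28000 CPM in Trpm2-/- kidneys. Of these markers 2 of 9 (Krt20 and Sox9) rose, against 4.74% of all genes tested. Havcr1, which encodes KIM-1, had a log2 fold change of 0.51 (adjusted p = 0.0747 by edgeR's quasi-likelihood test, used below wherever edgeR is named). Spp1, which made up most of the sum, did not pass the test (log2 fold change 0.23, adjusted p = 0.561 by edgeR). A pair of libraries stood apart in other markers. Trpm2-/- replicate 4 held 509.8 CPM of podocyte markers against 130.4 to 173.3 CPM in the other libraries, and WT replicate 1 held 80.1 CPM of urothelium markers against 10.04 to 23.6 CPM.

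The positions are those of GRCm38, and for 9 of the 10 the deposited start and end equal those of the GENCODE mouse annotation, release M21. Egf lies on chromosome 3 (129677565 to 129755316, minus strand), Tgfa on chromosome 6 (86195223 to 86275719), Nrg1 on chromosome 8 (31814551 to 32884029, minus strand), Erbb3 on chromosome 10 (128567523 to 128589652, minus strand), and Egfr and Erbb2 on chromosome 11 (from 16752203 and from 98412470). Ereg (91074622 to 91093646), Areg (91139599 to 91148432) and Btc (91357261 to 91402994, minus strand) lie near each other on chromosome 5, where Ereg ends 46.0 kb before Areg and Areg 208.8 kb before Btc. The promoter of Areg is shown because it was the only one of the 7 member promoters searched that held a cAMP response element, and that of Egf for contrast, as the 1 ligand whose mean level was lower in Trpm2-/- kidneys. Each is the 250 bases before the annotated start in RefSeq (GRCm38.p6), written 5′ to 3′ on the gene's strand, with matches to the motifs in capitals. The promoter set used here covered 6 of the 10 members, with a further start for Egf. It held none for Hbegf, Ereg, Nrg1 and Erbb3, whose promoters were thus not searched.
Areg, chr5:91139349-91139598, plus strand: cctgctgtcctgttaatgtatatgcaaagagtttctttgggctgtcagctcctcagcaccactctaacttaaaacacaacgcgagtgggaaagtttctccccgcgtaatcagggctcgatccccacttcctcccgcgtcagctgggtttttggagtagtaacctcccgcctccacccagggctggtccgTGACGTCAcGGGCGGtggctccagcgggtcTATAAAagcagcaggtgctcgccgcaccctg
Egf, chr3:129755323-129755572, minus strand: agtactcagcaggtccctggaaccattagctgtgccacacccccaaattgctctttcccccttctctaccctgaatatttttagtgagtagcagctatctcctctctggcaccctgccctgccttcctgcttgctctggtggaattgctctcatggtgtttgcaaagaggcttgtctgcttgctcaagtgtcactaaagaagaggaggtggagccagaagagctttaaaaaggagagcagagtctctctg
The motifs searched on both strands were the cAMP response element TGACGTCA, the AP-1 site TGANTCA, the GC box GGGCGG and the TATA box TATAAA. In the Areg promoter the response element begins 61 bases before the start, a GC box 52 bases and a TATA box 31 bases before it. The response element occurred in 1.55% of the 32851 promoters of this length, the AP-1 site in 6.75%, the GC box in 32.7% and the TATA box in 12.4%. None of the 4 was found in these letters upstream of Egf. GC boxes also lay in the promoters of Egfr and Tgfa.

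No member passed the test between genotypes after adjustment. Of the 7 ligands, 6 had a higher mean in Trpm2-/- kidneys and Egf a lower one. Over all genes tested, 51.6% had a log2 fold change above 0. All 10 members passed the filter on low counts. At an adjusted p under 0.05, edgeR's quasi-likelihood test called 0 of the 10 higher and 0 lower, against 4.74% of the 15816 genes tested called higher, 7.28% called lower and 12% in either direction. At an unadjusted p under 0.05 it called 6, which were Egf, Hbegf, Areg, Ereg, Tgfa and Nrg1, against 28.3% of all genes. DESeq2 and limma-voom also called 0 at an adjusted p under 0.05. Over all genes DESeq2 called 1095 higher and 1444 lower, and limma-voom 698 higher and 1152 lower. The threshold of the methods, an absolute log2 fold change above 1 with an unadjusted p under 0.05, was passed by Ereg (higher) and Egf (lower), against 7.6% of all genes. Egf missed it with the DESeq2 Wald test (log2 fold change -1.07, unadjusted p = 0.0869), with limma on log2(FPKM + 1) or log2(FPKM + 0.1), and without WT replicate 3 (-0.57), Trpm2-/- replicate 1 (-0.75) or Trpm2-/- replicate 2 (-0.99). Ereg missed it with both limma fits on FPKM (0.27 and 0.99), whose pseudocounts shrink the fold changes of low genes. Every Trpm2-/- kidney lay above every WT kidney for 5 members, namely Hbegf, Areg, Ereg, Nrg1 and Egfr, against 16.7% of all genes, and no member had every Trpm2-/- kidney below every WT kidney (33.5% of all genes did not overlap in either direction). Without Trpm2-/- replicate 4, the adjusted p of Areg, Tgfa and Egf fell under 0.05, so that 2 members were then called higher and 1 lower. Of the 16251 genes tested in that fit, 782 were called higher and 1031 lower. Over all alternatives run, the adjusted p ranged from 0.0465 to 0.260 for Areg, from 0.00295 to 0.321 for Tgfa and from 1.23e-07 to 0.489 for Egf. The lowest values of the last pair came from the fit with no filter on low counts. In that fit the unadjusted p of Egf fell from 0.0358 to 2.09e-09 by edgeR, while its log2 fold change hardly moved (-1.07 to -1.09). Both fits used the same counts of the same kidneys, so this fall does not come from the spread of Egf between them. Its source was not tested.

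**Figure D1:**
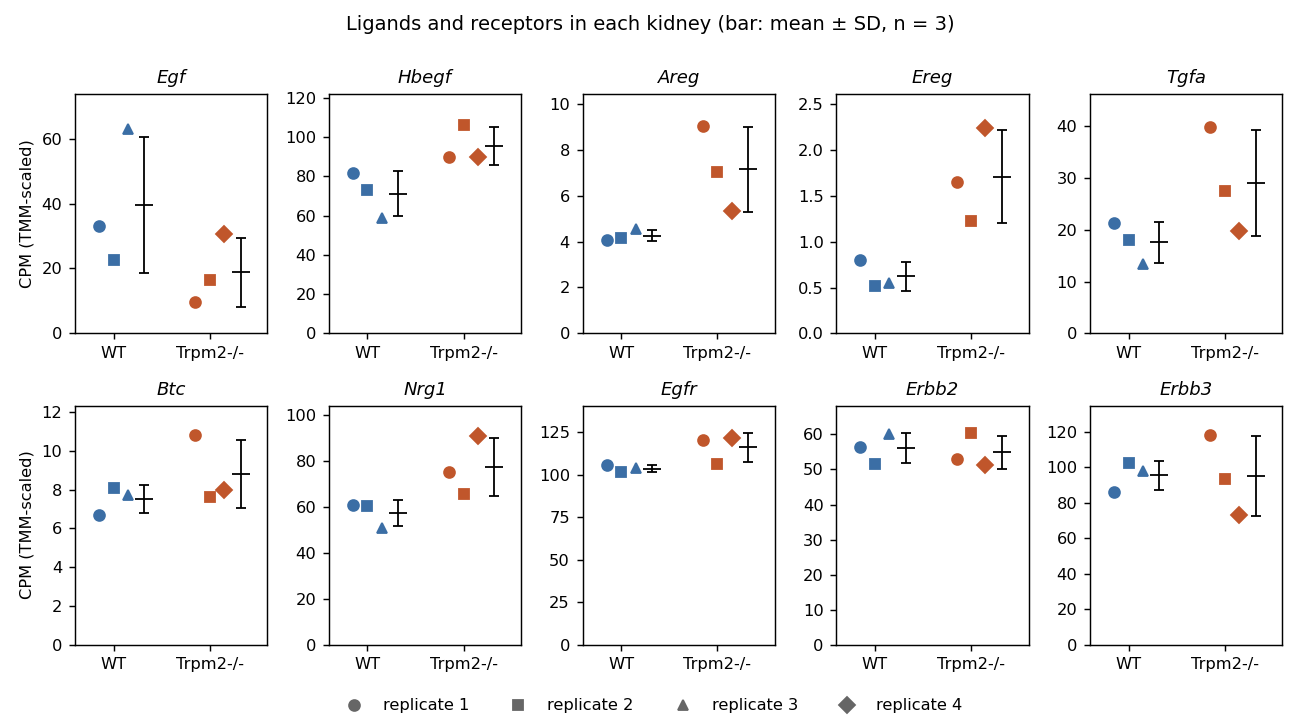
Level of each member in CPM (linear axes from 0) in the 3 WT (blue) and 3 Trpm2-/- kidneys (orange), with a marker shape for each replicate number and the mean ± SD beside them. The genotypes do not overlap for Hbegf, Areg, Ereg, Nrg1 and Egfr, while Egf spreads from 22.5 to 63.1 CPM in WT and from 9.55 to 30.5 CPM in Trpm2-/- kidneys.

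Egf encodes the ligand for which the receptor is named. It had 33.2, 22.5 and 63.1 CPM in WT replicates 1, 2 and 3, and 9.55, 16.5 and 30.5 CPM in Trpm2-/- replicates 1, 2 and 4. The genotypes overlapped, since Trpm2-/- replicate 4 was above WT replicate 2. The means were 39.6 ± 21 and 18.8 ± 10.7 CPM (SD, n = 3), and the log2 fold change was -1.07 (SE 0.439, 95% interval -2.06 to -0.09, adjusted p = 0.145 by edgeR). Single kidneys set its size, as it was -0.57 without WT replicate 3 (adjusted p = 0.489 by edgeR) and -1.60 without Trpm2-/- replicate 4 (adjusted p = 0.0423 by edgeR). Reads were not stated to be counted by strand, and the genes that overlap Egf exons on the other strand, 6330410L21Rik and Gm42697, had at most 7 counts in a library.

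The summed markers of the cells known to make Egf moved with it, though single markers did not all do so. In bulk kidney, fewer cells of a type and less RNA per cell cannot be told apart. The 14 markers of the thick ascending limb and distal convoluted tubule summed to 1770, 1370 and 2760 CPM in WT. The sum was 559, 729 and 1450 CPM in Trpm2-/- replicates 1, 2 and 4, which ranks the 6 kidneys in the same order as Egf does. Without Umod, a marker described below, the order changed, with WT replicate 1 (980 CPM) below Trpm2-/- replicate 4 (1010 CPM). Of the 12 that were tested, 11 had a log2 fold change below 0 (median -0.67, against 0.02 over all genes tested). Among all 15816 genes tested, 7661 lay below 0. By edgeR 2 fell (adjusted p under 0.05), against 7.28% of all genes, namely Cldn10, a tight junction gene, and Umod. Trpm6 lay above 0 (log2 fold change 0.66, adjusted p = 0.163 by edgeR). Slc12a3 was highest in Trpm2-/- replicate 4 (168 CPM) and Calb1 in WT replicate 2 (243 CPM), unlike Egf. These 3 genes were named after their values were seen. Egf amounted to 1.93 ± 0.324% of the sum of all 14 markers in WT and 2.02 ± 0.285% in Trpm2-/- kidneys (SD, n = 3, two-sided exact permutation test, p = 0.8, where 3 kidneys against 3 allow no p below 0.1). This share, and those of Umod and of the remaining markers, were chosen after their values were seen. Umod encodes uromodulin, a major secreted protein of the thick ascending limb, and made up a large part of the sum. It fell from 792, 523 and 1514 CPM to 128, 161 and 432 CPM, a log2 fold change of -1.97 (adjusted p = 0.0326 by edgeR). As a share of Umod, Egf was 4.2%, 4.3% and 4.16% in the WT kidneys and 7.47%, 10.2% and 7.06% in the Trpm2-/- kidneys, which do not overlap (exact permutation test, p = 0.1, the smallest possible). Against the other 13 markers without Umod, Egf was 3.70 ± 1.22% in WT and 2.71 ± 0.430% in Trpm2-/- kidneys (SD, n = 3; exact permutation test, p = 0.3). Egf was thus lower by nearly the same factor as the whole list (2.10 and 2.16 for the ratio of means, WT to Trpm2-/-), by less than Umod and, in the means, by more than the remaining markers (1.53).

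**Figure D2:**
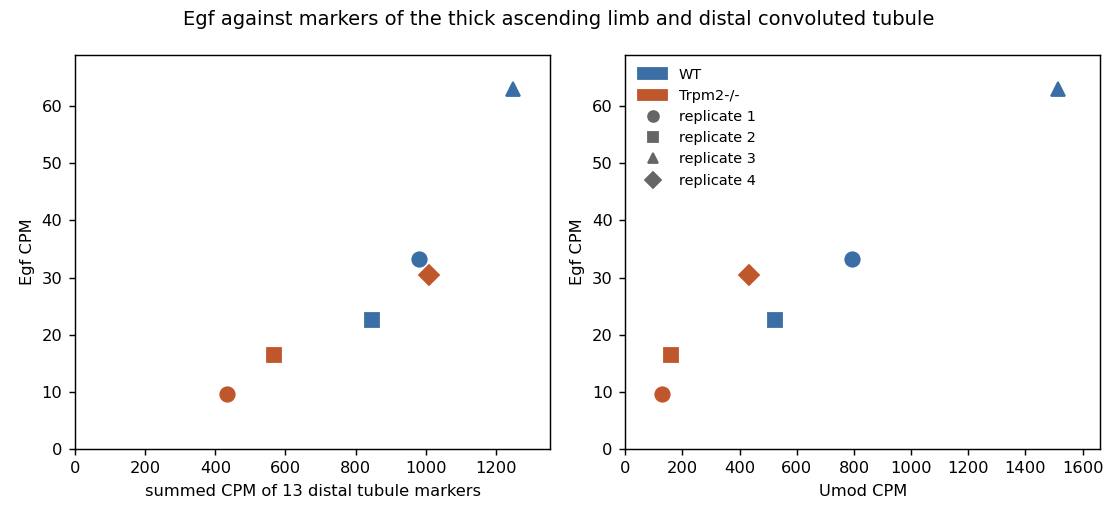
Egf in CPM against the summed CPM of 13 markers of the thick ascending limb and distal convoluted tubule (left) and against Umod in CPM (right), with 1 point per kidney, WT in blue and Trpm2-/- in orange. Trpm2-/- replicate 1 is lowest and WT replicate 3 highest in both plots, and Egf amounts to 4.16% to 4.3% of Umod in WT and 7.06% to 10.2% in Trpm2-/- kidneys.

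By likeness of profile (root-mean-square distance between centred log2 CPM over the 6 kidneys, among 9594 genes of at least 10 CPM on average), the 5 genes nearest to Egf were Aqp6, Ckb, Fam107a, Kcnj1 and Bckdhb, at distances of 0.19 to 0.25. Kcnj1, the potassium channel ROMK of the thick ascending limb, belongs to the marker list above (log2 fold change -0.63, adjusted p = 0.303 by edgeR). Aqp6, which was the nearest, Ckb, Fam107a and Bckdhb are in none of the marker lists used here. Of the 5, Ckb alone passed the test (log2 fold change -1.24, adjusted p = 0.0448 by edgeR). With 6 kidneys in 2 groups this likeness is a description.

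The ligands known to be induced by tubule injury had higher means in Trpm2-/- kidneys, as did every other ligand of the set except Egf. Hbegf encodes heparin-binding EGF-like growth factor and had the highest level per length of the set. It lies on chromosome 18 (36504929 to 36515805, minus strand), the deposited start 2 bases from that of GENCODE, and had 81.7, 72.9 and 59.0 CPM in WT and 89.7, 106 and 89.9 CPM in Trpm2-/- kidneys, with every Trpm2-/- kidney above every WT kidney. The log2 fold change of Hbegf was 0.42 (SE 0.152, 95% interval 0.08 to 0.76, adjusted p = 0.103 by edgeR). Areg encodes amphiregulin, a ligand of EGFR alone. It had 4.07, 4.18 and 4.54 CPM in WT, a narrow range, and 9.06, 7.03 and 5.36 CPM in Trpm2-/- kidneys. The genotypes did not overlap, and the log2 fold change was 0.75 (SE 0.266, adjusted p = 0.1 by edgeR), or 0.93 without Trpm2-/- replicate 4 (adjusted p = 0.0465 by edgeR).

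Ereg, its neighbour, encodes epiregulin and was the least abundant member, with 13, 8 and 9 counts in WT and 27, 18 and 36 counts in Trpm2-/- kidneys. In CPM these are 0.802, 0.514 and 0.552 against 1.65, 1.23 and 2.24, with no overlap between genotypes. Its log2 fold change of 1.45 was the highest of the set (SE 0.431, 95% interval 0.48 to 2.41, adjusted p = 0.0575 by edgeR). Gm19610, which overlaps Ereg exons on the other strand, had 3 and 12 counts in Trpm2-/- replicates 1 and 4 and 0 in the other libraries, and without stated strand its reads cannot be told from those of Ereg. Btc, the most distant gene of the chromosome 5 cluster, encodes betacellulin, and its genotypes overlapped. It had 6.72, 8.10 and 7.73 CPM in WT and 10.8, 7.65 and 7.97 CPM in Trpm2-/- kidneys, so that Trpm2-/- replicate 1 alone was above the WT range. Btc had a log2 fold change of 0.23 with a 95% interval from -0.27 to 0.74 (adjusted p = 0.547 by edgeR), and the value was 0.05 without Trpm2-/- replicate 1 and 0.15 without WT replicate 1. Epgn, the remaining EGF-like ligand of this cluster, had too few counts to be tested.

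Tgfa encodes TGF-alpha, a ligand of EGFR alone like amphiregulin. It had 21.2, 18.1 and 13.4 CPM in WT and 39.9, 27.6 and 19.7 CPM in Trpm2-/- kidneys, and Trpm2-/- replicate 4 fell within the WT range. The log2 fold change was 0.73 (SE 0.263, adjusted p = 0.104 by edgeR), and it was 0.43 without Trpm2-/- replicate 1 and 0.95 without replicate 4 (adjusted p = 0.302 and 0.0365 by edgeR). In Trpm2-/- kidneys Areg and Tgfa thus had the same order, with replicate 1 highest and replicate 4 lowest, whereas Egf had the reverse order. Nrg1 encodes neuregulin 1, which binds ERBB3 and ERBB4 in place of EGFR. It had 60.8, 60.3 and 50.7 CPM in WT and 75, 65.5 and 90.8 CPM in Trpm2-/- kidneys, without overlap. Its log2 fold change was 0.43 (SE 0.153, adjusted p = 0.0985 by edgeR) and 0.31 without Trpm2-/- replicate 4, its highest kidney (adjusted p = 0.224 by edgeR). Gm26578, which overlaps Nrg1 exons on the other strand, had 63 to 140 counts in a library, and without stated strand its reads cannot be told apart there.

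Of the 3 receptors, Egfr alone had kidneys that did not overlap between genotypes. Egfr had 106, 101 and 104 CPM in WT and 120, 107 and 122 CPM in Trpm2-/- kidneys, with Trpm2-/- replicate 2 just above WT replicate 1. Its log2 fold change was 0.17, with a 95% interval from -0.10 to 0.43 (adjusted p = 0.406 by edgeR). Erbb2, the partner receptor, overlapped between genotypes, with 56.5, 51.6 and 60.2 CPM in WT and 53.1, 60.4 and 51.3 CPM in Trpm2-/- kidneys. For Erbb2 the log2 fold change was -0.03, with a 95% interval from -0.32 to 0.26 (adjusted p = 0.901 by edgeR). Mien1, which overlaps it on the other strand, had 33.0 CPM on average (555, 683 and 726 counts in WT and 412, 505 and 251 in Trpm2-/- kidneys). Without stated strand, Mien1 reads in the overlap cannot be told from those of Erbb2. Erbb3, the neuregulin receptor, had 86.0, 102 and 97.9 CPM in WT and spread from 73.2 CPM (replicate 4) over 93.3 CPM (replicate 2) to 118 CPM (replicate 1) in Trpm2-/- kidneys. For Erbb3 it was -0.01, with a 95% interval from -0.40 to 0.39 (adjusted p = 0.984 by edgeR). The sign of both small values changed with the processing, and without Trpm2-/- replicate 4 they were 0.02 (Erbb2) and 0.16 (Erbb3). The 5 genes nearest to Egfr in profile were Eif4e, Abce1, Yod1, Capn7 and Srrm1 (distances of 0.03 to 0.04), none with an adjusted p under 0.05. Erbb4, the receptor of the family outside the set, had 8.08, 4.56 and 11.9 CPM in WT and 4.10, 4.23 and 5.29 CPM in Trpm2-/- kidneys (log2 fold change -0.85, adjusted p = 0.139 by edgeR) and was named after its values were seen.

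**Figure D3:**
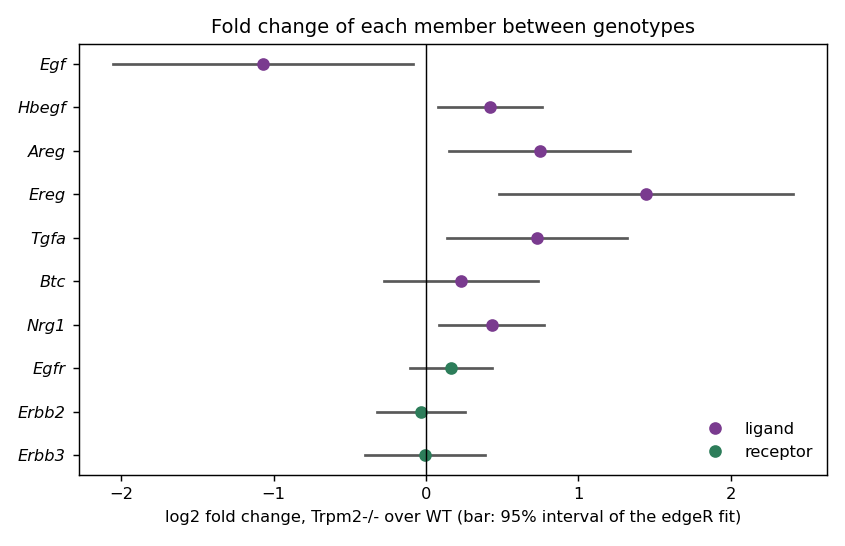
Log2 fold change of each member, Trpm2-/- over WT, as points, with the 95% interval of the edgeR fit as lines, ligands in purple and receptors in green. The intervals of Egf (-2.06 to -0.09) and, on the other side of 0, of Hbegf, Areg, Ereg, Tgfa and Nrg1 leave out 0 before adjustment for the number of genes, and those of Btc and the 3 receptors include it.

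Levels can be compared between genes only per length, for which the deposited FPKM values (reads per kilobase of gene, scaled to library size) were used. In WT kidneys the order was Hbegf (26.3 ± 4.28 FPKM), Erbb3 (13.9 ± 1.20), Erbb2 (9.42 ± 0.711), Egfr (8.00 ± 0.165), Nrg1 (4.84 ± 0.493), Egf (3.07 ± 1.62), Areg (3.07 ± 0.168), Tgfa (2.37 ± 0.538), Btc (1.45 ± 0.135) and Ereg (0.132 ± 0.0334; SD, n = 3). Of the 9 neighbouring pairs, Nrg1 with Egf and Egf with Areg overlapped in their ranges. In Trpm2-/- kidneys Egf stood in place 9 with 1.48 ± 0.846 FPKM (SD, n = 3), below Areg, Tgfa and Btc, although its range overlapped that of Btc. On these lengths Erbb3 was above Erbb2 and Erbb2 above Egfr by their means in both genotypes, and in Trpm2-/- kidneys the ranges of the last pair overlapped. The table takes the length of all exons of a gene together, and the order changed with the longest protein-coding transcript of GENCODE in its place, an alternative chosen after the data were seen. The length fell by the largest factor for Egf, from 11275 to 4761 bases, and next for Nrg1, from 10351 to 5415 bases. Egf then had 7.27 ± 3.84 FPKM in WT, still in place 6, and 3.50 ± 2.00 FPKM in Trpm2-/- kidneys (SD, n = 3), in place 8. Nrg1 moved from place 5 to place 4 in WT (9.25 ± 0.943 FPKM) and to place 3 in Trpm2-/- kidneys (12.6 ± 2.16 FPKM; SD, n = 3). Among the receptors Egfr then stood below Erbb2 in WT (8.88 ± 0.184 and 9.79 ± 0.739 FPKM) and above it in Trpm2-/- kidneys (10 ± 0.778 and 9.65 ± 0.791 FPKM; SD, n = 3), with ranges that overlapped in both genotypes. Hbegf and Erbb3 kept places 1 and 2, and Ereg place 10.

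Among the 7 ligands, Hbegf had the highest level per length in every kidney. Its share of the summed FPKM was 66.8%, 65.8% and 57.8% in WT and 60.7%, 69.3% and 64.1% in Trpm2-/- kidneys, which overlapped. With the longest coding transcripts this share was 54.4%, 53.9% and 43.6% in WT and 51%, 59.6% and 51.8% in Trpm2-/- kidneys. The sum of all 7 was 45.2, 40.9 and 37.5 FPKM in WT and 54.9, 56.7 and 52.5 FPKM in Trpm2-/- kidneys, higher in each Trpm2-/- kidney than in any WT kidney (exact permutation test over samples, p = 0.1, the least that 3 against 3 allow). On the longest coding transcripts the sums were 49.7 to 55.4 FPKM in WT and 64.9 to 65.9 FPKM in Trpm2-/- kidneys, also without overlap. Egf contributed 5.72%, 4.27% and 13% in WT and 1.36%, 2.26% and 4.58% in Trpm2-/- kidneys. The means of this share were 7.67 ± 4.68% and 2.73 ± 1.66% (SD, n = 3), a difference of -4.94 percentage points (exact permutation test, p = 0.2) with Trpm2-/- replicate 4 above WT replicate 2. This difference was -2.26 without WT replicate 3, -8.84 on the longest coding transcripts and -12.06 by CPM.

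**Figure D4:**
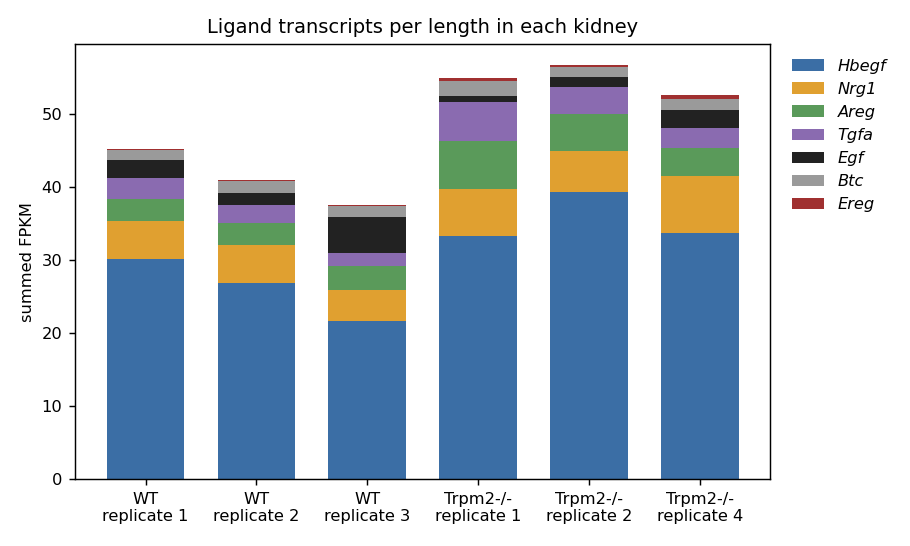
Summed FPKM of the 7 ligands in each kidney (linear axis from 0), stacked by gene. Hbegf (blue) fills 57.8% to 69.3% of each bar, the bars of the Trpm2-/- kidneys reach 52.5 to 56.7 FPKM against 37.5 to 45.2 FPKM in WT, and the band of Egf (black) is tallest in WT replicate 3.

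Of the feedback inhibitors, transcripts that dampen receptor signaling, 5 rose in Trpm2-/- kidneys and 13 did not pass the test. Of 19 in the list, 18 were tested, and 17 had a log2 fold change above 0, against 51.6% of all genes tested (median 0.42, against 0.02). Of these 18, 27.8% rose by edgeR (adjusted p under 0.05) with 0 lower, against 4.74% of all genes called higher. The list was chosen with earlier results of these data known, so this share is a description and not a test of the pathway. Spred3, an inhibitor of the RAS to RAF step, rose from 21.2, 21.9 and 16.4 CPM to 38.3, 49.6 and 44.1 CPM, a log2 fold change of 1.15 (adjusted p = 0.00351 by edgeR). Its relative Spred2 rose from 29.6, 32.2 and 30.9 CPM to 65.7, 53.9 and 46.8 CPM (log2 fold change 0.84). Dusp5, a nuclear phosphatase that inactivates ERK, rose from 53.4, 49.6 and 43.7 CPM to 87.7, 94.6 and 86.6 CPM (log2 fold change 0.87). The others were Dusp6, the cytoplasmic ERK phosphatase (0.70), and Spry2 of the Sprouty family (0.76). In each of these 5 every Trpm2-/- kidney was above every WT kidney, which their selection by the test favours. Of the 18 tested genes of the list this held for 12, against 16.7% of all genes. Errfi1, which encodes the receptor inhibitor MIG6, was the single tested gene of the list below 0, with 626, 891 and 722 CPM in WT and 815, 644 and 437 CPM in Trpm2-/- kidneys (log2 fold change -0.24, adjusted p = 0.544 by edgeR), and was singled out after its value was seen. Without WT replicate 2 or without WT replicate 3, 3 genes of the list were called higher.

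Of the genes that ERK signaling is known to raise, 7 rose in Trpm2-/- kidneys and 8 did not pass the test. Of 16 in the list, 15 were tested, and 13 had a log2 fold change above 0 (median 0.45), against 51.6% of all genes tested. By edgeR 46.7% rose with 0 lower, against 4.74% of all genes. This list too was chosen with earlier results of these data known, so the share is a description and not a test of the pathway. Egr1, an immediate early transcription factor, rose from 120, 114 and 125 CPM to 225, 205 and 187 CPM (log2 fold change 0.78, adjusted p = 0.00591 by edgeR). Etv4, an ETS factor, rose from 15.7, 16.6 and 13.4 CPM to 28.3, 35.3 and 25.7 CPM (0.97), and Myc, which drives growth and proliferation, from 45.3, 47.9 and 48.6 CPM to 68.3, 74.6 and 80.0 CPM (0.65). The other 4 were Fosl1, Phlda1, Atf3 and Plaur. Fos did not follow, with 17.6, 19.1 and 19.2 CPM in WT and 19.7, 16.2 and 17.1 CPM in Trpm2-/- kidneys (log2 fold change -0.08, adjusted p = 0.792 by edgeR), and was named after its value was seen. This count was 2 without WT replicate 2, 3 without WT replicate 3 and 4 without Trpm2-/- replicate 2. These genes also answer to other stimuli. The proximal tubule markers fell and 2 of 9 injury markers rose in the same kidneys, as given above. The part of such changes in these results was not tested.

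Of 11 genes for the shedding of ligands, 1 rose by edgeR and 0 fell, or 9.09% against 4.74% of all genes called higher and 12% in either direction, a share near the background. This was Adam12, a metalloprotease that can release HB-EGF, with 0.247, 0.643 and 0.859 CPM in WT and 2.82, 3.62 and 3.05 CPM in Trpm2-/- kidneys (log2 fold change 2.42, SE 0.457, adjusted p = 0.0102 by edgeR). Adam17, the main sheddase of TGF-alpha and amphiregulin, had 34.7, 26.3 and 25.3 CPM in WT and 37.6, 27.9 and 34.1 CPM in Trpm2-/- kidneys, which overlapped (log2 fold change 0.21, adjusted p = 0.477 by edgeR), and was named after its value was seen. Of 28 adaptors and kinases that relay the signal, edgeR called 0 higher and 0 lower at an adjusted p under 0.05, with 4 at an unadjusted p under 0.05, against 12% of all genes called and 28.3% at an unadjusted p under 0.05, and their log2 fold changes lay between -0.36 and 0.46 (median 0.11). Of the 5 other ligands and receptors of the family, 2 were tested and 0 called, with 1, Erbb4, at an unadjusted p under 0.05. DESeq2 called 0 in the relay list and 0 in the last list. In the shedding list it called 3 of 11, all higher, against 1095 genes called higher and 1444 lower of the 15816 tested. The nearness to the background given above is thus a statement about the main edgeR fit only.

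**Figure D5:**
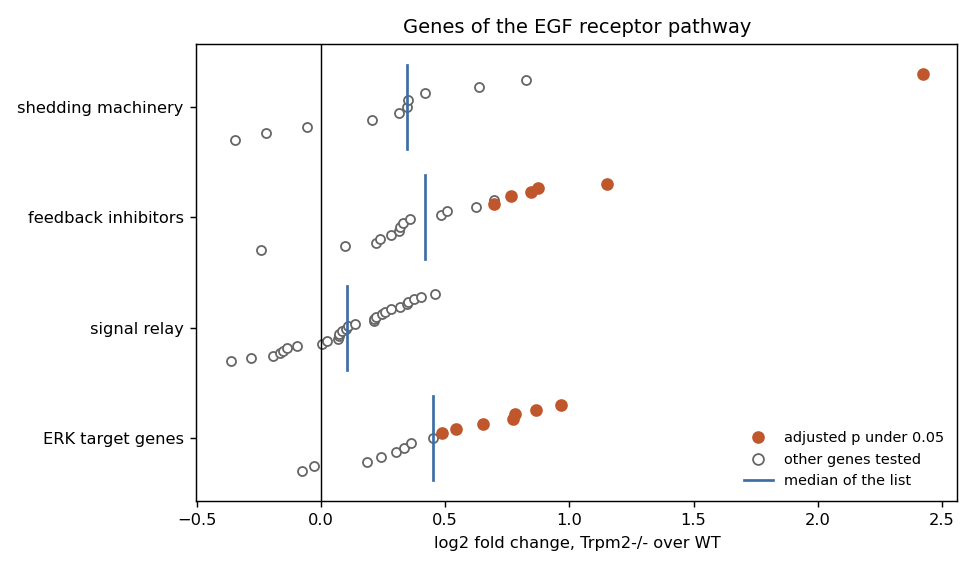
Log2 fold change, Trpm2-/- over WT, of each tested gene in 4 lists of the EGF receptor pathway, with genes at an adjusted p under 0.05 (edgeR) filled in orange and the median of each list as a blue line. The 5 called feedback inhibitors lie between 0.70 and 1.15 and the 7 called ERK target genes between 0.49 and 0.97, while no gene of the signal relay passes the test.

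Markers of other cell types were read beside these results as summed levels. Collecting duct markers were lower in Trpm2-/- kidneys (803 to 966 CPM against 1320 to 1632 CPM in WT), with 2 of 7 tested genes called lower, among them Aqp2, the water channel of principal cells (log2 fold change -1.02, adjusted p = 0.00602 by edgeR). Macrophage and neutrophil markers overlapped between genotypes (82.8 to 113 CPM against 105 to 138 CPM), with 1 of 10 called lower. Fibroblast markers (47.3 to 167 CPM against 63.0 to 96.2 CPM), endothelial markers (57.4 to 228 CPM against 84.2 to 117 CPM) and Schwann cell markers (16.2 to 19.5 CPM against 13.7 to 22.9 CPM) overlapped with 0 genes called in edgeR's test, also with 0 at an unadjusted p under 0.05. Of 5 podocyte markers 0 were called, with 3 higher at an unadjusted p under 0.05, and of 6 tested urothelium markers 2 were called lower. Over all genes tested, 7.28% were called lower, and 28.3% had an unadjusted p under 0.05 in either direction. The most abundant genes of the other lists were Slc27a2 (proximal tubule, log2 fold change -0.97), Spp1 (injury, 0.23), Cd68 (macrophages, -0.06), Podxl (podocytes, 0.54), Flt1 (endothelium, -0.46), Col1a2 (fibroblasts, 0.13), Mbp (Schwann cells, 0.0044) and Psca (urothelium, -2.30), of which Slc27a2 and Psca passed the test. Trpm2-/- replicate 4, which held the most podocyte, endothelial and fibroblast markers, also had the highest Nrg1, Ereg and Egfr. Among Trpm2-/- kidneys it had the highest Egf and the lowest Areg, Tgfa, Erbb2 and Erbb3. The part of cell makeup in these values was not tested.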

How the data were processed

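RNA was isolated from kidneys with Trizol, and libraries were made with a NEBNext Ultra II kit and sequenced on an Illumina HiSeq instrument. The submitters' processing notes name HISAT2, StringTie and the build mm9, without roles; the counting tool and strandedness are not given in the sources used here. The positions in the tables equal GRCm38 for 98.3% of the 54409 genes shared with GENCODE M21. The authors deposited raw read counts per gene, whole numbers without normalization, and FPKM values, which the authors made from these counts by gene length and a library total. Columns were matched to samples by title.

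The test of genotype used edgeR 4.0.16 under R 4.3.3 (filterByExpr, which kept 15816 genes, TMM, quasi-likelihood test on genotype alone, two-sided, Benjamini-Hochberg over all genes tested). The SE of a log2 fold change was derived from its size and the root of the F statistic. "Rose" and "fell" are used of genes with an adjusted p under 0.05. Nothing in the labels says more of the replicates than their number, so p-values measure the spread between these samples. The fit with no filter on low counts is an exception for Egf, as given above. Single values were compared by exact permutation over samples. The members and gene lists were chosen with earlier results of these data known. Named genes were the members, Trpm2, up to 3 genes per direction and pathway list with the smallest p, leading markers with Umod and Havcr1, and the 5 genes nearest in profile to Egf and to Egfr; other names are marked in the text as chosen later or complete a short count.

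Alternatives were DESeq2's size factors, upper-quartile normalization, no filter, a mean CPM of at least 1, the Wald test of DESeq2 1.42.0, limma with voom weights, limma on log2(FPKM + 1) and log2(FPKM + 0.1) (version 3.58.1), removal of the mitochondrial genome (4.43% to 4.72% of counts in WT and 7.91% to 11.0% in Trpm2-/- libraries), a block for the replicate number, and omission of each kidney in turn. In counts simulated for this comparison with 195 genes of the 15901 tested changed 4-fold, edgeR recovered 192 (98.5%) with 6 others called. Every simulated gene had the same dispersion, and the largest member change in the data was 2.72-fold (Ereg). The simulation thus checks that the fit runs correctly and does not give its power for changes of the members' size and spread. No window of 75 bases in a member's transcripts occurred in a transcript of another gene.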

Additional observations from a re-analysis of the deposited data

How the results depend on the processing

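In every alternative run, Egf kept a log2 fold change below 0 (-1.60 to -0.57) and Hbegf, Areg, Ereg, Tgfa, Btc, Nrg1 and Egfr kept one above 0. Members called at an adjusted p under 0.05 remained at 0 in each direction, with exceptions. With no filter on low counts, 1 was higher (Tgfa) and 1 lower (Egf), and 1 further receptor or ligand outside the set was also called. The fold change of Egf hardly moved in that fit, as given above. On leaving out kidneys, 0 to 2 members were higher and 0 to 1 lower. Members past the threshold of the methods were 2, but 1 with the DESeq2 Wald test, 0 with limma on log2(FPKM + 1) or log2(FPKM + 0.1), 1 with the replicate block, and 1 to 2 on leaving out kidneys. Shedding genes called were 1, but 2 with upper-quartile normalization or no filter, 3 with the DESeq2 Wald test and 1 to 2 on leaving out kidneys. Feedback inhibitors called ranged from 3 to 6 and ERK targets from 2 to 6 on leaving out kidneys. The same-numbered kidneys are different mice and did not deviate together (correlations of 0.045 and -0.015), and with the replicate block 3 ERK targets and 4 feedback inhibitors were called, and Ereg missed the threshold of the methods (log2 fold change 1.13, unadjusted p = 0.104 by edgeR). The log2 fold change of Erbb2 turned above 0 with upper-quartile normalization (0.00506), the replicate block (0.0677) and without WT replicate 3 or Trpm2-/- replicate 4 (-0.107 to 0.0236 on leaving out kidneys). That of Erbb3 did so with upper-quartile normalization (0.0245), without the mitochondrial genome (0.00658), with the replicate block (0.164) and without WT replicate 2 or 3 or Trpm2-/- replicate 2 or 4 (-0.198 to 0.160). The difference in the share of Egf among ligands was -4.94 percentage points by FPKM, -12.06 by CPM, -8.84 on the longest coding transcripts, which was added after seeing the data, and -6.63 to -2.26 on leaving out kidneys. The causes of these changes were not tested, since leaving out a kidney alters both the number of samples and which kidneys remain. For the share of Egf, the longest coding transcripts changed the lengths only. Over all genes, the main fit called 750 higher and 1152 lower, and the replicate block 341 and 661. The DESeq2 Wald test called 1095 and 1444, and no filter 1262 and 1692. Omission of WT replicate 2 gave 176 and 521, that of WT replicate 3 160 and 470, and that of Trpm2-/- replicate 4 782 and 1031.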
